A study of Mus musculus with 2 samples.

Results

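Primary granule genes are 10 genes, Mpo, Elane, Prtn3, Ctsg, Ms4a3, Prss57, Cst7, Srgn, Serpinb1a and Lyz2, found by symbol in the gene list of both matrices. All 10 of 10 were present, of 32285 genes in all, and each had UMIs in both libraries. The study put a vector with the RUNX1 mutation S291fs and GFP into Phf6 knockout (KO) and wild-type (WT) mouse bone marrow cells and transplanted the sorted GFP-positive cells. At week 8 after transplant, GFP-positive, lineage-negative (GFP+Lin-) cells were sorted from recipient marrow for single-cell RNA sequencing. There was 1 library of Phf6 KO cells with the RUNX1 mutant and 1 library of Phf6 WT cells with the same mutant, so every cell described here carried the vector and no group without it was compared. The age and sex of the mice, how many recipients stood behind each library, the Cre or other means of Phf6 deletion, and the promoter of the vector are not given in the sources used here. With 1 library per genotype no difference could be tested across mice, no p-value is given, and all intervals are 95% intervals that cover counting error only.

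Primary, or azurophil, granules are the first granules that a developing neutrophil makes, and they are filled at the promyelocyte stage. Myeloperoxidase (Mpo) makes hypochlorous acid, and neutrophil elastase (Elane), proteinase 3 (Prtn3), cathepsin G (Ctsg) and the serine protease Prss57 are the stored proteases. Serglycin (Srgn) is the proteoglycan core protein on which they are packed, cystatin F (Cst7) is an inhibitor of cathepsins, Serpinb1a is a cytosolic inhibitor of the serine proteases, lysozyme (Lyz2) breaks bacterial cell walls, and Ms4a3 is a membrane protein of granulocyte and monocyte progenitors. Monocyte progenitors share the early part of the same programme.

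The KO library held 5260 barcodes with 120408100 UMIs and the WT library 5287 barcodes with 131667969 UMIs. After filtering, 4709 KO and 4478 WT cells remained, with median depths of 21443 and 24801.5 UMIs, and 10 barcodes occurred in both libraries. Phf6 itself had 20.6 CPM (a gene's UMIs as parts of 1000000 UMIs of its library and cell group) in KO and 41.8 CPM in WT cells; the position of the deletion relative to the counted 3′ end is not given, so this level does not by itself check the label. Clusters of at least 50 cells in each library numbered 20. They were formed without the 10 genes, and the class names rest on other markers. Clusters with B cell-like, erythroid-like and megakaryocyte-like markers were present in both libraries, and 51 plasma cell-like cells were found in WT with no such cluster cell in KO, although the sort was lineage-negative.

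Promoter sequence is shown for 4 of the genes: Prtn3 and Elane, neighbours whose KO over WT differences had opposite signs in most myeloid clusters, and Mpo and Lyz2, which stood highest on different branches. Prtn3 and Elane lie side by side on chromosome 10 of mouse GRCm38, at 79874476 to 79883174 and 79886247 to 79888215 on the plus strand in the GENCODE M21 annotation, 3072 bp apart. Prtn3 overlaps Plppr3 on the other strand, Mpo overlaps Gm11505 and Prss57 overlaps Fstl3. Mpo lies on chromosome 11 and Lyz2 on chromosome 10. Each sequence runs 5′ to 3′ from 250 bases before to 50 bases after the RefSeq start (GRCm38.p6), and capitals mark every match, on either strand, to GAGGAA (PU.1), CAACNG (MYB), TGTGGT (RUNX) or TTGCNNAA (C/EBP).
Prtn3, chr10:79879417-79879716, plus strand: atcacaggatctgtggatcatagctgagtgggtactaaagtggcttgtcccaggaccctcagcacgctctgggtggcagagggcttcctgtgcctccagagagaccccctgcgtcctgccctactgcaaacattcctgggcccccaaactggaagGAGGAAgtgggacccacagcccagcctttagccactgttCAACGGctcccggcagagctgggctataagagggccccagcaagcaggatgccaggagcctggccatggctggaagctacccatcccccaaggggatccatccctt
Elane, chr10:79886062-79886361, plus strand: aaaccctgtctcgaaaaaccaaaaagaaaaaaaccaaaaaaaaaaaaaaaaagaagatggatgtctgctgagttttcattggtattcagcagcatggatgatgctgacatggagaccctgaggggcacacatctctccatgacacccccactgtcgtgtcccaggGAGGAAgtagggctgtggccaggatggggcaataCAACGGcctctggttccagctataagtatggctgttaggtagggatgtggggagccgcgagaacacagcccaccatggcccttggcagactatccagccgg
Mpo, chr11:87793534-87793833, plus strand: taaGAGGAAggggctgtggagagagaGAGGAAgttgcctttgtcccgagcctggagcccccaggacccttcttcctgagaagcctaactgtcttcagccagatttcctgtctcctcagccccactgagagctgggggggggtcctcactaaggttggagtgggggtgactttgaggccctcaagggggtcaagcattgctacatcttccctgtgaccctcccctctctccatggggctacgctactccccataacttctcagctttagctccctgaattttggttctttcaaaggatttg
Lyz2, chr10:117282223-117282522, minus strand: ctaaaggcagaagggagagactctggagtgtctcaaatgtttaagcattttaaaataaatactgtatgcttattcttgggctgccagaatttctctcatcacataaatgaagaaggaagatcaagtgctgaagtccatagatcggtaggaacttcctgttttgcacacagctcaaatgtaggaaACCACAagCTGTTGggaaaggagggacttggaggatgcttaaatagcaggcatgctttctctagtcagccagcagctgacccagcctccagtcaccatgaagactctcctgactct
The Prtn3 and Elane windows each held GAGGAA, at -95 and -85 from the start, and CAACGG, at -56 and -51. The Mpo window held 2 copies of GAGGAA, at -247 and -224. The Lyz2 window held ACCACA, the reverse complement of TGTGGT, at -66 and CTGTTG, which reads CAACNG on the other strand, at -58. RefSeq promoters were found for 8 of the 10 genes; GAGGAA was in 5, CAACNG in 5, TGTGGT in 4 and TTGCNNAA in 2. Among 32851 promoters of the same length these motifs were in 28.3%, 35.0%, 16.8% and 10.8%. A match describes letters in a window and is not a bound site.

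By a line at 10% of the highest level, the genes came on in the same order in both libraries. Onset was taken as the first cluster in which a gene reached 10% of its highest cluster level in that library, going from stem-like clusters 3, 0, 13 and 9, through early myeloid cluster 5, to neutrophil-lineage clusters 6, 11 and 2 or to monocyte-like clusters 8, 10 and 7. Srgn, Serpinb1a and Cst7 were past it in the stem-like clusters. Mpo, Prtn3, Ctsg and Ms4a3 passed it in cluster 5, Elane and Prss57 in cluster 6, and Lyz2 did not pass it on the neutrophil branch but did in monocyte-like cluster 8. Lyz2 came nearest to the line on the neutrophil branch in cluster 6, at 8.76% in KO and 5.92% in WT. At other lines the libraries were not alike in every gene: at 25% Ms4a3 was first counted in cluster 5 in WT and on the neutrophil branch in KO, and at 50% Serpinb1a was counted in the stem-like clusters in WT and on the neutrophil branch in KO. At 5% of the highest level, 3 genes in KO and 7 in WT were counted as on in the stem-like clusters, because Mpo, Prtn3, Ctsg and Ms4a3 crossed 5% in WT cluster 9. These 4 genes were at 3.87% to 4.56% of their highest level in KO cluster 9, and at 5.51% to 8.45% in WT cluster 9, on either side of that line. Cluster 9 was led by cell cycle genes such as Nusap1 and Cenpf and held none of the stem markers among its top 10 genes. It had a later median pseudotime than cluster 5, 0.0389 and 0.0330, so the clusters were ordered by class and not by pseudotime alone. Cluster 0, led by Tox and 9530026P05Rik, held 1 stem marker and 1 lymphoid progenitor marker (Dntt) among its top 10 genes.

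**Figure D1:**
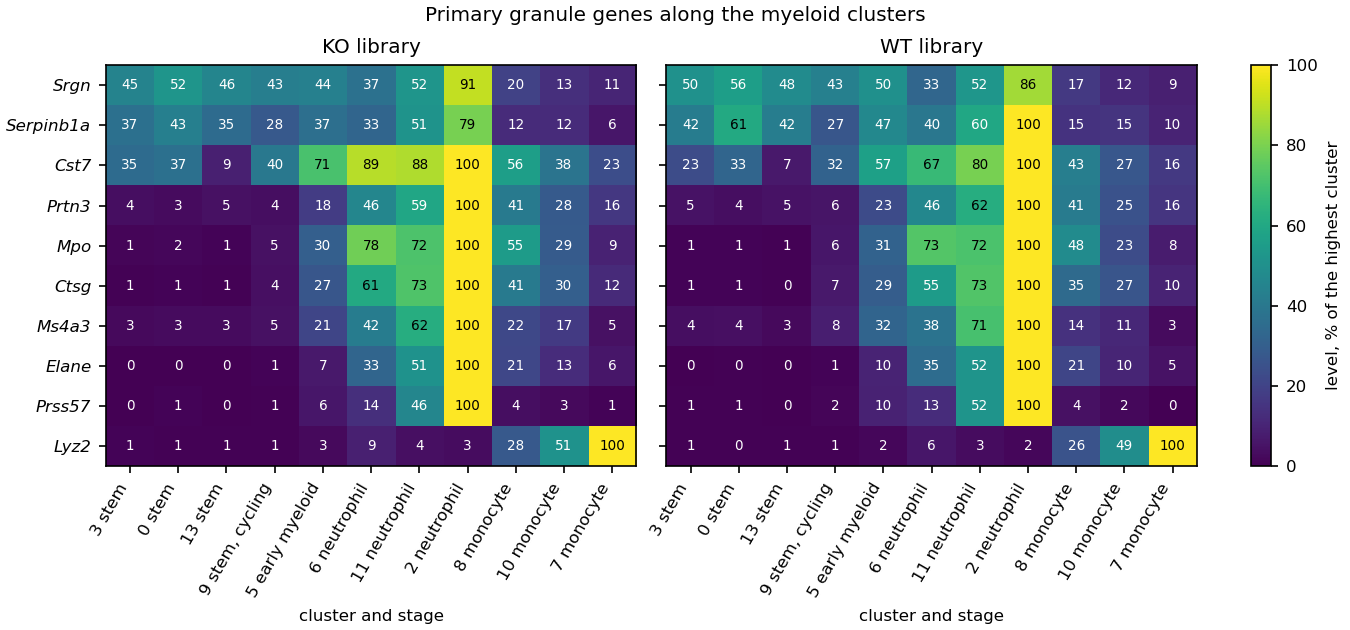
Level of each gene in each cluster as a percentage of its highest cluster level in the same library, KO left and WT right, with clusters in order from stem-like to neutrophil and monocyte-like and genes in order of onset. Mpo stands at 30.3% (KO) and 31.4% (WT) in early myeloid cluster 5, where Elane stands at 7.03% and 9.87%, and Lyz2 is highest in monocyte-like cluster 7.

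Srgn, Serpinb1a and Cst7, the packing and inhibitor proteins, stood at a large share of their highest level in stem-like cells, before the proteases did. Over all HSC/MPP-like cells (1364 KO and 922 WT, clusters 3, 0, 13 and 9), Srgn was at 1715 CPM in KO and 1912 CPM in WT. Serpinb1a was at 246 CPM in KO and 212 CPM in WT, and Cst7 at 86.8 and 71.9 CPM. Srgn is also a gene of other blood cells: in the erythroid-like, megakaryocyte-like and B cell-like clusters 12, 20, 4 and 19 it ranged over 759 to 1444 CPM in KO and 792 to 1470 CPM in WT. In those clusters Serpinb1a ranged over 77.5 to 108 CPM in KO and 37.0 to 119 CPM in WT, below its stem-like level, while Cst7 ranged over 9.30 to 80.2 CPM and 5.16 to 58.7 CPM and so came close to it. Within the stem-like clusters Cst7 was uneven, at 22.0 CPM in KO and 19.2 CPM in WT in cluster 13, which had the highest score for HSC/MPP markers, against 93.7 and 93.2 CPM in cluster 0. Serpinb1a was at 237 CPM in KO and 235 CPM in WT in cluster 13, so the early level of Serpinb1a, unlike that of Cst7, extended to that cluster.

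Prtn3 was the protease seen earliest. In stem-like clusters 3, 0, 13 and 9 it was at 383, 299.5, 491 and 407 CPM in KO and at 453, 327, 438 and 505 CPM in WT. Clusters 12, 20, 4 and 19 belong to other lineages, and their UMIs of the gene are taken as free RNA, an assumption that was not tested. Prtn3 was at 67.2 to 102 CPM in KO and 58.6 to 90.7 CPM in WT there. The stem-like levels lay above that range in every one of the 4 clusters and in both libraries. Dendritic cell-like cluster 17 is not part of that range. Without the 5 cells with most of its Prtn3 UMIs it was at 278 CPM in KO and 230 CPM in WT, also above the range. Elane did not show this: in clusters 3, 0 and 13 it was at 25.7, 26.8 and 28.7 CPM in KO and 38.6, 45.2 and 36.7 CPM in WT, within the 23.2 to 49.6 CPM (KO) and 27.5 to 56.7 CPM (WT) of the other lineages, and is read as background there. Mpo was also near background in these clusters, at 48.3 to 95 CPM in KO and 38.0 to 58.6 CPM in WT, against 31.6 to 67.4 and 32.3 to 90.2 CPM in the other lineages.

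At equal depth the share of HSC/MPP-like cells with a UMI stood well above that of megakaryocyte-like cells for Prtn3 in both libraries, and for Elane by a smaller step in WT. Shares in other lineages are not given here. With every cell cut down at random to 5000 UMIs, and 198 KO and 243 WT cells below that depth set aside, Prtn3 was seen in 71.0% of HSC/MPP-like cells in KO (68.5% to 73.4%, Clopper-Pearson) and 74.0% in WT (71.1% to 76.9%). In megakaryocyte-like cells it was seen in 38.1% in KO (33.1% to 43.2%) and 34.9% in WT (30.4% to 39.7%). Elane was seen in 14.7% of KO and 20.9% of WT HSC/MPP-like cells, and in 13.4% and 13.7% of megakaryocyte-like cells. By level the WT step did not extend to every lineage. WT erythroid-like cells held 1498 Elane UMIs of 16519665, against 1319 of 20091912 in WT HSC/MPP-like cells. Unthinned, the Prtn3 shares were 90.1% in KO and 93.8% in WT HSC/MPP-like cells and 80.2% and 79.1% in megakaryocyte-like cells, whose median depths were 15334 and 19486 UMIs and 24100 and 25324 UMIs. In cluster 13 thinned cells held Prtn3 in 88.5% of KO and 82.3% of WT cells.

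The number of Prtn3 UMIs per Elane UMI was higher in stem-like clusters 3, 0 and 13 than in clusters 12, 20, 4 and 19. Cluster 9 was less far above them. In cluster 13 there were 17.1 Prtn3 UMIs per Elane UMI in KO (13.5 to 22.0) and 11.9 in WT (9.83 to 14.6). Clusters 3 and 0 had 14.9 and 11.2 in KO and 11.7 and 7.23 in WT, and cluster 9 had 5.18 in KO (4.73 to 5.69) and 4.87 in WT (4.52 to 5.25). The other lineages were not at 1 value: clusters 12, 20, 4 and 19 had 2.79, 2.89, 4.39 and 1.75 in KO and 2.61, 2.13, 2.94 and 1.45 in WT. The interval of cluster 4 in KO (3.73 to 5.18) overlapped that of cluster 9. Early myeloid cluster 5 had 3.07 in KO and 1.95 in WT, and maturing neutrophil-like cluster 2 had 1.21 and 0.848. The ratio is compared between clusters and is not a ratio of molecule numbers in a cell.

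**Figure D2:**
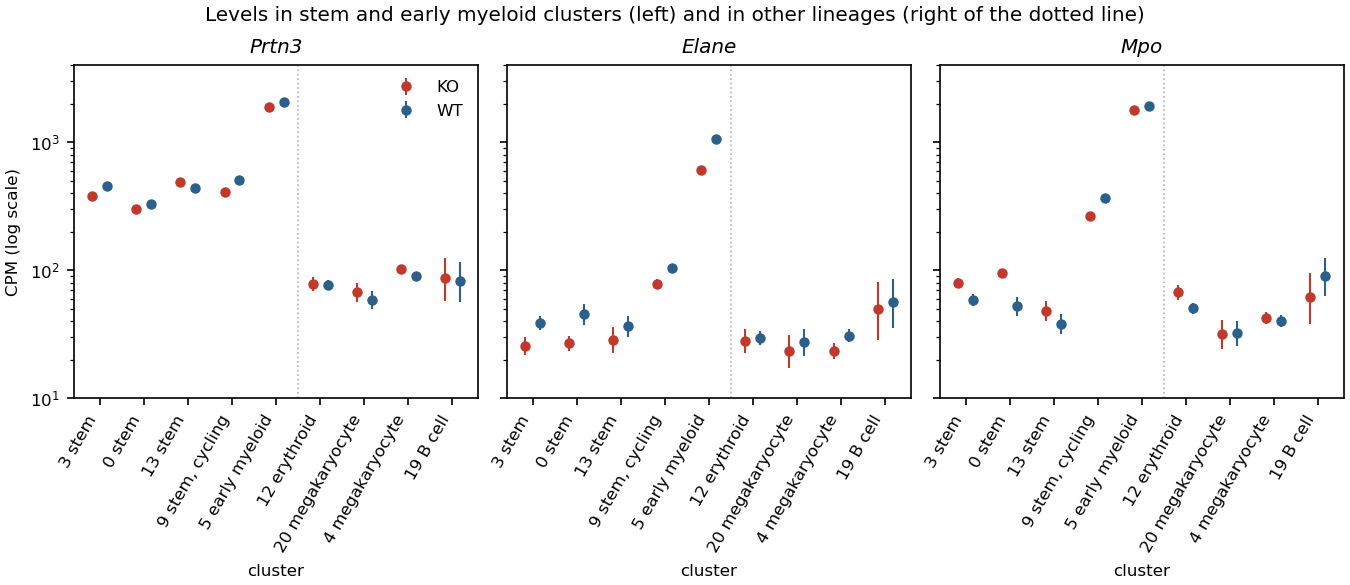
CPM on a log scale of Prtn3, Elane and Mpo in stem-like and early myeloid clusters (left of the dotted line) and in clusters of other lineages (right), KO left of WT in each pair, with exact Poisson intervals. Prtn3 lies between 299.5 and 505 CPM in the 4 stem-like clusters and between 58.6 and 102 CPM in the clusters of other lineages shown. Elane in clusters 3, 0 and 13 lies inside the range of the clusters of other lineages shown.

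Cell by cell, Prtn3 without Elane was common and the reverse was not. Among thinned HSC/MPP-like cells, 809 of 1344 in KO and 539 of 909 in WT held Prtn3 without Elane, and 52 in KO and 56 in WT held Elane without Prtn3. In early myeloid cluster 5, where Mpo was also the more abundant of the pair, 133 of 324 KO cells and 98 of 334 WT cells held Mpo without Elane, while 5 and 10 held Elane without Mpo. Prtn3 without Mpo was found in 46 KO and 54 WT cells of cluster 5, and Mpo without Prtn3 in 6 and 3. The more abundant gene of a pair is seen alone more often at a fixed depth, so these counts describe the cells and are no separate measure of order.

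Early myeloid cluster 5 (325 KO and 342 WT cells, led by Cpa3 and Ccl9 and given no class name) was where the protease programme became large. Its best class was neutrophil progenitor, but the median log2 fold of those markers over the other cells was -0.49. Early myeloid is therefore a working name for its place in the order. Mpo was at 1772 CPM in KO and 1927 CPM in WT, Prtn3 at 1873 and 2075 CPM, and Ctsg at 1479 and 1682 CPM. Ms4a3 was at 378 CPM in KO and 584 CPM in WT. Mpo and Ctsg were already past 25% of their highest level there, at 30.3% and 26.6% in KO and 31.4% and 29.3% in WT; Prtn3, higher than both in stem-like cells, was at 17.8% and 22.7%. Elane was at 611 CPM in KO and 1067 CPM in WT, which is 7.03% and 9.87% of its highest level, and Prss57 was at 6.04% and 9.67%, so both lay just under the 10% line in WT and further under it in KO. The cells of cluster 5 differed among themselves: thinned, the interquartile range over cells was 1 to 12 Mpo UMIs in KO and 1 to 14 in WT.

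In the neutrophil-lineage clusters all the proteases were at their highest, and they did not reach it at the same rate. Clusters 6 and 11 had neutrophil progenitor markers below the naming score and cluster 2 had maturing neutrophil markers (Camp, S100a9, S100a8). Mpo was at 4569, 4209 and 5848 CPM in KO and 4496, 4400 and 6141 CPM in WT over clusters 6, 11 and 2, so 78.1% and 73.2% of its highest level was already present in cluster 6. Elane was at 2840, 4424 and 8695 CPM in KO and 3834, 5602 and 10807 CPM in WT, which put cluster 6 at 32.7% and 35.5%. Prss57 was the latest, at 13.3, 44.8 and 98.0 CPM in KO and 13.4, 54.4 and 105 CPM in WT. Prtn3 reached 10509 CPM in KO and 9159 CPM in WT in cluster 2, Ctsg 5558 and 5739 CPM, and Ms4a3 1799 and 1813 CPM. The 10 genes together took 3.71% of all UMIs in KO and 3.83% in WT cells of cluster 2, against 0.287% and 0.329% in HSC/MPP-like cells.

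The monocyte branch carried the same proteases at a lower level, and they were lower in each later cluster while Lyz2 was higher. In clusters 8, 10 and 7, Lyz2 was at 3983, 7340 and 14346 CPM in KO and 4050, 7730 and 15728 CPM in WT. Mpo over the same clusters was at 3212, 1684 and 549 CPM in KO and 2960, 1426 and 465 CPM in WT. Prtn3 was at 4305, 2980 and 1720 CPM in KO and 3793, 2320 and 1425 CPM in WT, and of the proteases it kept the largest share of its highest level in cluster 7, 16.4% in KO and 15.6% in WT. Prss57 stayed at 3.9% of its highest level or less in KO and 4.42% or less in WT. Of all Lyz2 UMIs, 83.1% in KO and 85.0% in WT lay in monocyte-like cells, whereas 81.4% and 85.7% of Elane UMIs lay in the neutrophil-lineage clusters. Its near copy Lyz1 had 44 UMIs in KO and 24 in WT against 223775 and 186764 for Lyz2, and Serpinb1b had 3 and 4 UMIs.

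Cells with basophil or mast cell markers (cluster 15, 72 KO and 102 WT cells) held a different subset. Srgn had its highest cluster level there, at 3670.5 CPM in KO and 3987 CPM in WT. Ctsg was at 2584 CPM in KO and 1871 CPM in WT and Ms4a3 at 391 and 378 CPM. Elane was at 43.3 CPM in KO and 59.4 CPM in WT, close to the range of the other lineages, so Ctsg stood far above its background of 21.3 to 130 CPM (KO) and 18.1 to 54.5 CPM (WT) where Elane did not.

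KO and WT differed little over all cells. The median log2 ratio of CPM over the 10 genes, KO over WT, was 0.043, beside 0.06 over all 8579 genes with a mean of at least 10 CPM. None of the 10 genes was past 1.5-fold in either direction, and 3.25% of the 8579 genes were, so a count of 0 of 10 is near the background. The extremes were Elane, at 1642 CPM in KO and 2233 CPM in WT (log2 ratio -0.44, -0.45 to -0.43), and Lyz2, at 2025 and 1571 CPM (0.37, 0.36 to 0.37). Prss57 was at 13.8 CPM in KO and 18.4 CPM in WT (-0.42), Prtn3 at 2723 and 2422 CPM (0.17), Cst7 at 129 and 115 CPM (0.16), Serpinb1a at 208 and 192 CPM (0.11), and Mpo, Ctsg, Ms4a3 and Srgn lay between -0.10 and 0.06. Ratios over all cells also follow the make-up of the libraries: the neutrophil-lineage clusters were 17.6% of KO and 19.8% of WT cells, maturing cluster 2 was 5.86% and 10.4%, and monocyte-like cells were 17.1% and 14.4%. When each cell counted alike, Elane and Prss57 were past 1.5-fold lower (-0.68 and -0.69), a setting at which the share of all genes was not counted. When each cluster counted alike, the Lyz2 ratio was -0.20, and the ratio of Mpo was -0.01 with TMM factors.

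Elane was lower in KO in each of the 20 clusters, and the interval lay below 0 in 13 of them. In cluster 2 it was at 8695 CPM in KO and 10807 CPM in WT (-0.31), in cluster 11 at 4424 and 5602 CPM (-0.34), and in cluster 6 at 2840 and 3834 CPM (-0.43). The largest difference among the myeloid clusters was in early myeloid cluster 5, at 611 CPM in KO and 1067 CPM in WT (-0.80, -0.85 to -0.75). In the monocyte-like clusters it was -0.29 in cluster 8 and near 0, at -0.06, in clusters 10 and 7. The clusters of 1 library share that library's free RNA and its handling, so the 20 clusters are not 20 independent comparisons; in clusters 12, 20, 4 and 19, whose Elane UMIs are taken as free RNA, the ratios were -0.07, -0.25, -0.40 and -0.19, with the interval off 0 in cluster 4 (-0.68 to -0.13). At the finer clustering of resolution 2, Elane was lower in KO in 10 of 10 myeloid clusters, with ratios of -0.63 to -0.06.

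The difference in Elane was spread over the cells of a cluster. Thinned cells of cluster 2 held a median of 41 Elane UMIs in KO and 55 in WT, with interquartile ranges of 32 to 54 and 40 to 70. In cluster 6 the medians were 12 in KO and 17 in WT, and in cluster 11 they were 17 and 23. In cluster 5, Elane was seen in 44.4% of thinned KO cells and 56.0% of thinned WT cells. The ranges of single cells overlapped widely in each of these clusters.

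Prtn3, the neighbour of Elane, was higher in KO in most single myeloid clusters. Over the neutrophil-lineage clusters pooled it did not differ beyond counting error, at 6888 CPM in KO and 6866 CPM in WT (0.00), with -0.02 to 0.20 over the alternatives, and in HSC/MPP-like cells it was at 373 and 456 CPM (-0.29). It was at 10509 CPM in KO and 9159 CPM in WT in cluster 2 (0.20, 0.19 to 0.21) and was higher in KO in 6 of 7 myeloid clusters, with ratios of 0.12 to 0.36; the exception was cluster 5 (-0.15). Thinned cells of cluster 2 held a median of 52 Prtn3 UMIs in KO and 46 in WT. Prtn3 per Elane was 1.70 in KO and 1.10 in WT in cluster 6, 1.40 and 1.02 in cluster 11, and 2.35 and 1.69 in cluster 8. This ratio does not depend on how the libraries are scaled. It was higher in KO in 20 of 20 clusters, and the intervals of KO and WT were apart in 10. The clusters of 1 library share its free RNA, so these are not independent comparisons. Megakaryocyte-like cluster 4, whose UMIs of both genes are taken as free RNA, was among those apart, at 4.39 in KO and 2.94 in WT. Over all cells Prtn3 per Elane was 1.66 in KO and 1.08 in WT, so cluster 4 did not hold its library's ratio. Whether its UMIs are free RNA was not tested. Mpo per Elane was also higher in KO in the 20 clusters apart from 9, 17 and 19, so this direction was not particular to Prtn3. It was 2.90 in KO and 1.81 in WT in cluster 5, and 1.61 and 1.17 in cluster 6. In cluster 9 it was 3.40 in KO and 3.53 in WT. How often further pairs of genes kept 1 direction was not counted. Cfd, the gene on the other side of Elane, had 15 UMIs in KO and 20 in WT and gives no comparison.

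**Figure D3:**
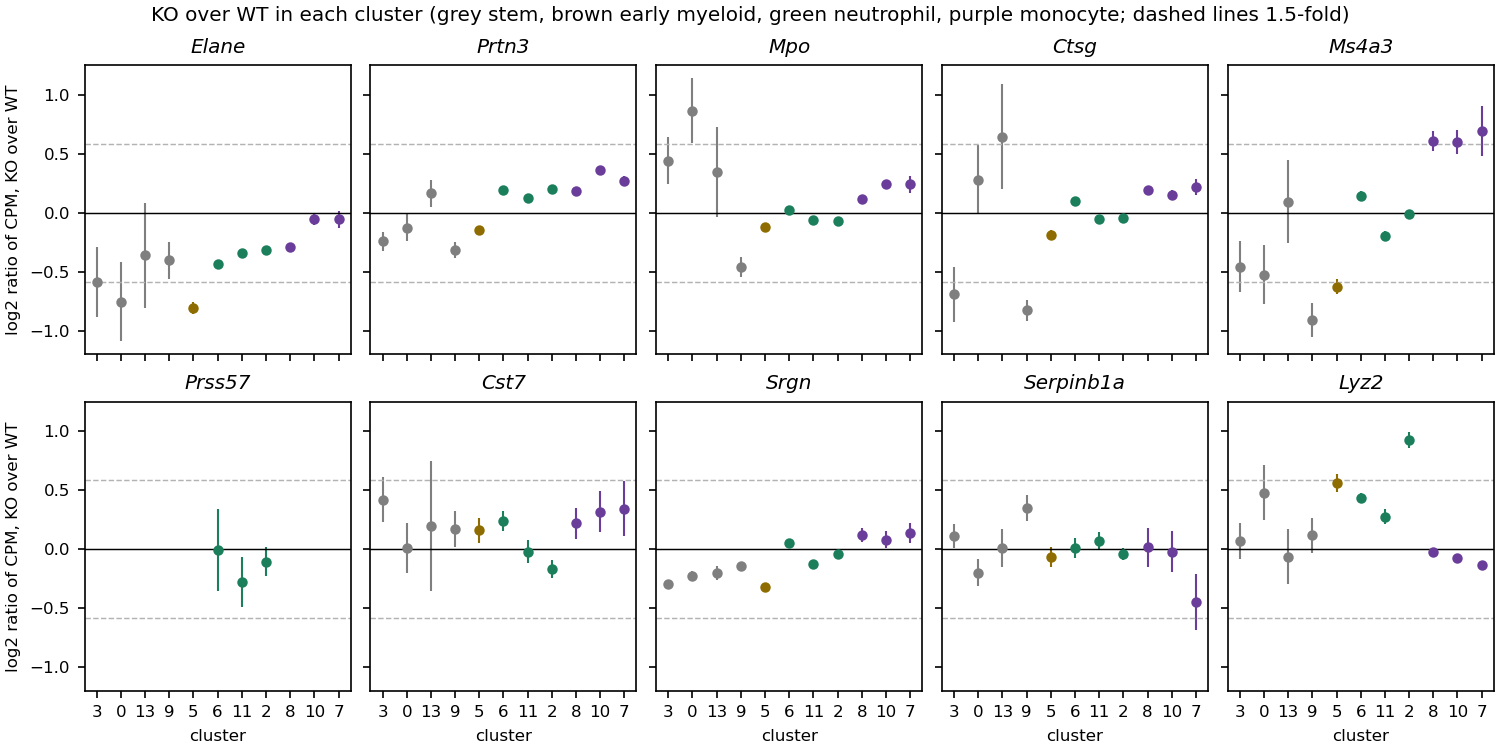
Log2 ratio of CPM, KO over WT, of each gene in the stem-like, early myeloid, neutrophil-lineage and monocyte-like clusters, with intervals for counting error and dashed lines at 1.5-fold; clusters in which the gene had a mean below 10 CPM are left out. Elane lies below 0 in all 11 clusters, Prtn3 above 0 in clusters 13, 6, 11, 2, 8, 10 and 7, Ms4a3 near 0.6 to 0.7 in the monocyte-like clusters, and Lyz2 above 0 in clusters 5, 6, 11 and 2 and below it in clusters 8, 10 and 7.

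Ms4a3 was lower in KO in early myeloid cells and higher in KO in monocyte-like cells. In cluster 5 it was at 378 CPM in KO and 584 CPM in WT (-0.63, -0.69 to -0.56), and it was seen in 56.2% of thinned KO cells and 74.3% of thinned WT cells. Elane and Ms4a3 were the genes of the 10 past 1.5-fold lower in cluster 5, beside 1.8% of all genes. Genes of other granulocytes were lower there too: Epx, the eosinophil peroxidase, had 5 UMIs in KO and 889 in WT, and the basophil protease Mcpt8 was at 18.1 CPM in KO and 46.8 CPM in WT (-1.37); their part in the difference was not tested. In monocyte-like clusters 8, 10 and 7 it was at 391, 306 and 84.1 CPM in KO and 257, 202 and 52.1 CPM in WT (0.61, 0.60 and 0.69). Over all monocyte-like cells it was the 1 gene of 9 measured that was past 1.5-fold higher (0.61, 0.55 to 0.67), beside 1.31% of all genes. This depends on where the monocyte-like cells begin: with the coarser clustering of resolution 0.5 the class had more Ms4a3 in both libraries, 529 CPM in KO and 575 CPM in WT, and the ratio was -0.12. In cluster 2 the gene did not differ beyond counting error (-0.01, -0.04 to 0.02).

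Lyz2 was higher in KO before and along the neutrophil branch and slightly lower in monocyte-like cells. In cluster 5 it was at 373 CPM in KO and 253 CPM in WT (0.56), and in cluster 6 at 1257 and 930 CPM (0.43). The median cell held 6 Lyz2 UMIs in KO and 4 in WT in cluster 5, and 29 and 20 in cluster 6; thinned, the medians were 1 in both and 4 and 3. In cluster 2 it was at 478 CPM in KO and 252 CPM in WT (0.92) and the 1 gene of 10 past 1.5-fold higher, beside 1.14% of all genes, but the median was 4 UMIs in both, and 5 cells held 43.6% of its UMIs in KO and 21.8% in WT. Without those cells cluster 2 was at 272 CPM in KO and 199 CPM in WT (0.45, 0.37 to 0.53), no longer past 1.5-fold. Over the neutrophil-lineage clusters together Lyz2 was the 1 gene of 10 past 1.5-fold higher (848 CPM in KO, 512 CPM in WT, 0.73), beside 1.23% of all genes. With the clusters weighted alike the ratio was 0.48, under 1.5-fold. In clusters 8, 10 and 7 the ratios were -0.02, -0.07 and -0.13.

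**Figure D4:**
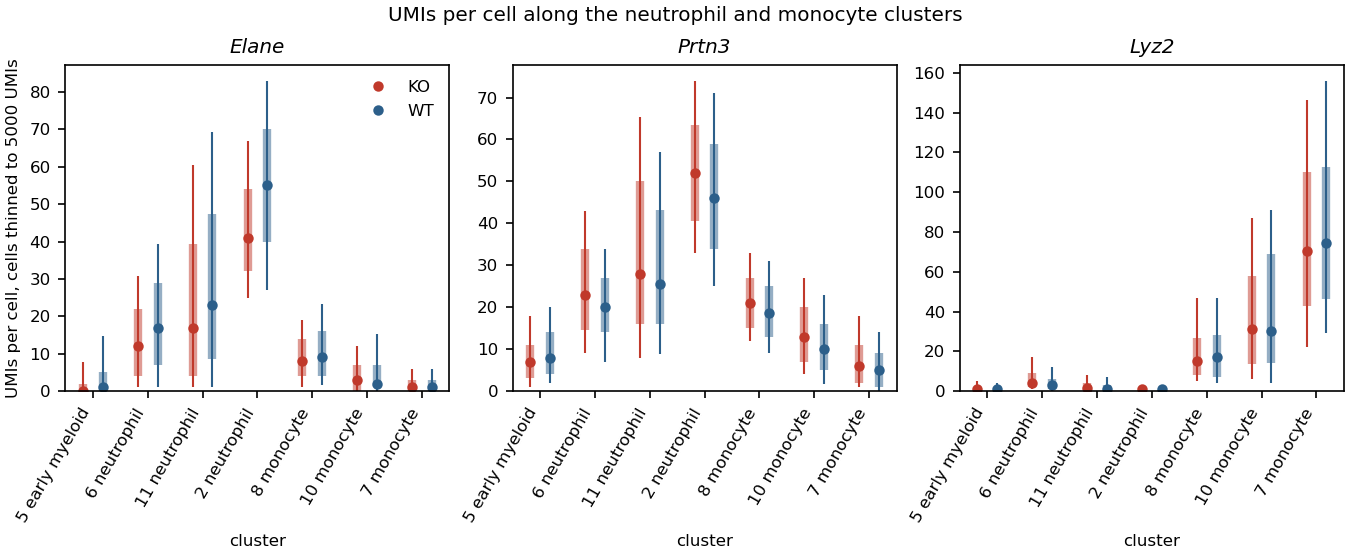
UMIs per cell of Elane, Prtn3 and Lyz2 after thinning to 5000 UMIs, KO left of WT in each cluster; points are medians, thick bars the interquartile range and thin lines the 10th to 90th percentile of cells. In cluster 2 the median is 41 (KO) and 55 (WT) for Elane and 52 and 46 for Prtn3, and Lyz2 is near 1 in both.

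Mpo, Ctsg, Srgn, Cst7 and Serpinb1a each stayed within 0.25 of 0 on the log2 scale in the 3 neutrophil-lineage clusters. Mpo was at 5848 CPM in KO and 6141 CPM in WT in cluster 2 (-0.07), and its ratio over the 3 neutrophil-lineage clusters ranged over -0.07 to 0.02. Ctsg ranged over -0.05 to 0.10 and Srgn over -0.12 to 0.05. Cst7 was at 226 CPM in KO and 191 CPM in WT in cluster 6 (0.24) and at 253 and 284 CPM in cluster 2 (-0.17). Serpinb1a, an inhibitor of elastase and proteinase 3, had intervals that held 0 in clusters 6, 11 and 2. The median over the 10 genes in the neutrophil-lineage clusters was -0.16, beside 0.02 over all genes. The medians within clusters 6, 11 and 2 were 0.08, -0.06 and -0.04, and with the clusters weighted alike the pooled median was -0.026; in monocyte-like cells it was 0.18 over 9 measured genes, beside 0.01.

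Among HSC/MPP-like cells the pooled ratios mixed clusters. Over all of them Ctsg, Ms4a3 and Elane were past 1.5-fold lower in KO, 3 of 9 measured genes beside 1.51% of all genes, with ratios of -0.92, -0.73 and -0.64. Cluster 9 held 1893 of the 3272 Mpo UMIs in KO and 2995 of 3614 in WT, and 5 of its cells held 61.9% of Elane UMIs in KO and 58.1% in WT. In cluster 9 Ctsg was at 219 CPM in KO and 387 CPM in WT (-0.83) and Ms4a3 at 81.8 and 153 CPM (-0.91). In clusters 3 and 0, by contrast, Mpo was higher in KO, at 79.5 CPM against 58.6 CPM in WT (0.44) and at 95 against 52.3 CPM (0.86), not far above the other lineages. With predicted doublets kept, the Elane, Ctsg and Ms4a3 ratios in HSC/MPP-like cells were 0.19, -0.38 and -0.54, and with clusters weighted alike -0.49, -0.56 and -0.55, so none of the 3 was past 1.5-fold in either setting. Prtn3, which stood clear of background, was at 383 CPM in KO and 453 CPM in WT in cluster 3 (-0.24) and at 491 and 438 CPM in cluster 13 (0.16). Cluster 0 was 12.4% of KO and 3.89% of WT cells, so the pooled class weighs different clusters in the libraries.

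Markers of later neutrophils moved with genotype and are given beside these results. Over the neutrophil-lineage clusters 6 of 8 measured maturing neutrophil markers were past 1.5-fold higher in KO, beside 1.23% of all genes. They were Ngp, Ltf, Lcn2, Camp, Retnlg and S100a9. The summed level of the 13 markers was 17658 CPM in KO and 11891 CPM in WT. In monocyte-like cells the same sum was 737 CPM in KO and 350 CPM in WT, and in HSC/MPP-like cells 108 and 82.3 CPM. The part of these markers in the differences above was not tested across mice; cluster 2 was split into 3 bands by the summed thinned UMIs of these markers, a step chosen after the data were seen. The bands held 75, 78 and 122 KO cells and 170, 167 and 123 WT cells. The markers that set the bands themselves differed by genotype in cluster 2, with a summed level of 44594 CPM in KO and 22644 CPM in WT. KO and WT cells of 1 band are therefore not matched for maturity, and the part of maturity was not tested. Elane was lower in KO in each band, with ratios of -0.31, -0.42 and -0.45 from the lowest to the highest band, and 6556, 9100 and 10062 CPM in KO and 8126, 12169 and 13740 CPM in WT. Prtn3 had ratios of 0.38, 0.08 and -0.01, so its difference was largest in the band with the fewest marker UMIs. Lyz2 had -0.16, 0.38 and 0.92.

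Other genes of granule biology were counted against the same 3.25% of all genes past 1.5-fold over all cells and the median of 0.06. Of 18 lysosomal enzymes and membrane proteins of the same granules, all were measured over all cells, with a median ratio of 0.14; Cd63, the tetraspanin of primary granules, was the 1 past 1.5-fold, at 162 CPM in KO and 261 CPM in WT (-0.69), and it was also lower in HSC/MPP-like cells (-0.73) and in the neutrophil-lineage clusters (-0.79). Of 20 measured genes of processing and trafficking, with a median of -0.02, Ctsc, the dipeptidyl peptidase that activates the granule proteases, was the 1 past 1.5-fold, at 181 CPM in KO and 116 CPM in WT (0.64). Its ratio was 0.56 in cluster 6, 0.63 in cluster 11 and -0.19 in cluster 2. Of 20 regulators with a median of 0.19, the inhibitors of DNA binding Id1 (18.6 and 10.4 CPM) and Id2 (21.2 and 13.6 CPM) were past 1.5-fold higher in KO. Gfi1, a repressor needed for neutrophil development, was at 44.3 CPM in KO and 55.3 CPM in WT in the neutrophil-lineage clusters (-0.32), Cebpe at 146 and 154 CPM (-0.08). In cluster 5, 1 regulator was past 1.5-fold lower and 1 higher of 16 measured, with a median of -0.02, beside 4.01% of all genes past it either way. Cebpe, a factor of granulocyte maturation, was the lower, at 78.1 CPM in KO and 138 CPM in WT (-0.82). Irf8, a factor of monocyte and dendritic cell development, was the higher, at 84.5 and 44.6 CPM (0.92). Their part in the Elane and Ms4a3 differences of that cluster was not tested. Irf8 was also past 1.5-fold higher in HSC/MPP-like cells, at 18.8 CPM in KO and 9.71 CPM in WT (0.95). It was the 1 of 14 measured regulators higher there, beside 4.04% of all genes. Runx1, whose counts may include the vector's transcript, was at 1186 CPM in KO and 910 CPM in WT over all cells (0.38).

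The genes whose level followed Mpo, Elane and Lyz2 most closely over the 20 clusters, with libraries summed, were ranked by Pearson's r of log2(CPM + 1) among 3258 genes, as a description; the clusters share libraries and depth. For Mpo these were Alas1 (0.97), the first enzyme of haem synthesis, then Ccz1, Anxa3, Rgcc and Dmkn. For Elane they were Dmkn (0.97), Alas1, Vapa, Cebpe (0.93) and Rgcc. For Lyz2 they were Tgfbi (0.95), Csf1r, Mpeg1, Ftl1 and Lamp1. Among the 10 genes themselves, Mpo and Elane had an r of 0.97 and Elane and Prtn3 of 0.93, while Mpo and Srgn had -0.04 and Srgn and Lyz2 -0.51.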

How the data were processed

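The deposited matrices hold whole-number UMI counts per gene and barcode, not normalised, for barcodes the authors' pipeline had called as cells. Libraries were made with a 10x 3′ kit, per the labels' protocols. Cell Ranger 6.0.2 is named in the file headers and Cell Ranger 3.0.1 with GRCm38 in the submitters' processing notes; no source names the annotation release. GENCODE M21 matched 32158 of the 32285 gene IDs.

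Barcodes with under 500 genes (32 KO, 51 WT) or over 10% mitochondrial UMIs (314 KO, 553 WT) were left out. Predicted doublets were removed by rank of Scrublet score, at 0.8% per 1000 barcodes (221 KO, 224 WT). Both libraries were clustered together with scanpy 1.11.5 on 2000 variable genes without the 10 members, with 30 components, 15 neighbours and Leiden resolution 1. A cluster was named when the median log2 fold of a class's markers reached 1 and its leading genes fitted. No cluster reached this as neutrophil progenitor-like, so clusters 6, 11 and 2 (score of at least 0.5) stand in for that class. Clusters of low UMI count with under 3 own markers among their top 10 genes were left unnamed, a rule set after their genes were seen.

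UMIs were summed per library and cluster and divided by the total (CPM). Ratios have exact conditional binomial intervals, levels exact Poisson and shares exact Clopper-Pearson intervals. The intervals were tested on simulated data. A gene counted as higher or lower at 1.5-fold with a mean of at least 10 CPM. edgeR 4.0.16 gave TMM factors for an alternative only. Other alternatives were a stricter cell filter, doublets kept, members in the clustering, resolutions 0.5 and 2, median of ratios, means per cell, equal weights of clusters, and other onset, fold and thinning thresholds. The genes, lists and markers were chosen with earlier results of these data known. The genes named were the 10 members, up to 4 of each other list by size of ratio, the near copies, the 5 genes most like Mpo, Elane and Lyz2, and Phf6 and Runx1; Gfi1, Cebpe, Irf8 and Cfd were added after their values were seen.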

Additional observations from a re-analysis of the deposited data

Results flagged for a closer look

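For 6 genes the ratio of KO over WT lay on opposite sides of 0 in the neutrophil-lineage clusters and in monocyte-like cells, with both counting intervals off 0. How many of all genes met the same rule was not counted, so the count of 6 is not read as a result about these genes. With 1 library per genotype the difference between the branches was not tested. Lyz2 had a ratio of 0.73 in the neutrophil-lineage clusters and -0.10 in monocyte-like cells. The other 5 went the other way: Ms4a3 was at -0.21 and 0.61, Mpo at -0.11 and 0.18, Ctsg at -0.13 and 0.18, Cst7 at -0.059 and 0.28, and Srgn at -0.24 and 0.12. Within single clusters the neutrophil side was mixed, with Mpo, Ctsg, Ms4a3, Cst7 and Srgn above 0 in cluster 6 and below 0 in clusters 11 and 2, and cluster 2 was 5.86% of KO and 10.4% of WT cells.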

How the results depend on the processing

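No paired analysis was possible because each genotype had 1 library, and no replicate could be left out. The median ratio of the 10 genes over all cells (0.043) lay near 0 and changed sign with the setting: it was 0.030 under the stricter cell filter, 0.031 with doublets kept, -0.024 with TMM factors, -0.041 with median of ratios, -0.15 as a mean per cell, -0.0027 with clusters weighted alike and -0.024 with clusters weighted by their mean UMI share, an alternative added after the data were seen. The count past 1.5-fold over all cells was 0 except for 2 as a mean per cell and 3 at a looser fold. The share of all genes was not counted at either of these settings, so neither count can be set against a background. In HSC/MPP-like cells the median (-0.29) was -0.19 under the stricter filter, 0.092 with doublets kept, -0.12 with the members in the clustering, -0.21 at resolution 0.5, -0.15 at resolution 2, -0.36 with TMM factors, -0.37 with median of ratios, -0.20 as a mean per cell, -0.13 with clusters weighted alike and -0.19 with the mean UMI share. In the neutrophil-lineage clusters (-0.16) it was -0.13, -0.14, -0.044, -0.19, -0.026 and -0.016 under the stricter filter, doublets kept, resolution 0.5, median of ratios, clusters weighted alike and the mean UMI share. In monocyte-like cells (0.18) it was 0.16 with doublets kept, -0.046 at resolution 0.5 and 0.22 at resolution 2. Single ratios past 1.5-fold that reversed were Elane in HSC/MPP-like cells with doublets kept (0.19) and Ms4a3 in monocyte-like cells at resolution 0.5 (-0.12). Lyz2 in the neutrophil-lineage clusters was 0.48 with clusters weighted alike and 0.50 with the mean UMI share, under 1.5-fold. Elane was lower in KO over all cells, in the neutrophil-lineage clusters and in monocyte-like cells under all the alternatives run there, with ranges of -0.68 to -0.34, -0.61 to -0.31 and -0.33 to -0.12. Members on in stem-like clusters numbered 7 in WT at 5%. Mpo was seen in 30.8% of KO and 26.4% of WT HSC/MPP-like cells, in 14.9% and 11.4% when thinned to 2000 UMIs and in 61.5% and 57.4% unthinned. The share of all genes past 1.5-fold (3.25%) was 2.05% at 50 CPM and 32.4% with any UMI. The causes of these shifts were not tested. TMM moved all ratios over all cells by -0.07 on the log2 scale. Prss57, with 1526 UMIs in KO and 2190 in WT, was too low for a comparison outside the neutrophil-lineage clusters.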

Other observations

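Serpinb1a, the inhibitor of neutrophil serine proteases, was higher in KO in erythroid-like, megakaryocyte-like and basophil or mast cell-like clusters, but not in every cluster off the myeloid branches. It was at 90.5 CPM in KO and 37.0 CPM in WT in erythroid-like cluster 12 (log2 ratio 1.29, 1.06 to 1.53), and at 108 and 59.8 CPM in megakaryocyte-like cluster 4 (0.85, 0.69 to 1.01). In megakaryocyte-like cluster 20 it was at 93.9 CPM in KO and 59.8 CPM in WT (0.65) and in basophil or mast cell-like cluster 15 at 681 and 447 CPM (0.61). Without the 5 cells with most of its UMIs the ratios in clusters 12, 4, 20 and 15 were 1.24, 0.86, 0.54 and 0.38. Serpinb1a was lower in KO in stem-like cluster 0, at 294 CPM in KO and 337 CPM in WT (-0.20, -0.31 to -0.08). Without the 5 highest cells that ratio was 0.04 (-0.08 to 0.17). The gene was higher in KO in stem-like cluster 9, at 189 and 149 CPM, and over all HSC/MPP-like cells (0.21). In B cell-like cluster 19 it was at 77.5 CPM in KO and 119 CPM in WT, where the interval held 0 (-0.61, -1.38 to 0.12). In the neutrophil-lineage clusters, where it was at 351 CPM in KO and 403 CPM in WT, it was not higher.

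Ctsg was at 130 CPM in KO and 54.5 CPM in WT in cluster 12, but 5 cells held 56.7% and 48.8% of these UMIs. In low-UMI cluster 14, led by platelet genes such as Tubb1, Lyz2 was at 176 CPM in KO and 1350 CPM in WT, and 5 WT cells held 94.9% of the UMIs. Without the 5 highest cells in each library it was at 97.5 CPM in KO and 79.8 CPM in WT. Calr, the chaperone of Mpo, was at 518 CPM in KO and 797 CPM in WT in HSC/MPP-like cells (-0.62), and at 1305 and 1292 CPM in the neutrophil-lineage clusters.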
